A study of Homo sapiens with 4 samples.

Results

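The timing domains of chromosome 3 were described in single S-phase cells of DKO1 and compared with those of HCT116. The regions are all bins of chromosome 3 in a deposited table of replication states, 2058 of 27704 autosomal bins of 80 kb. Of these, 2048 bins (163.84 Mb) had a call in 90% or more of the cells of each line and were used, of 27142 such bins on all autosomes. The p arm held 841 used bins and the q arm 1207. HCT116 is a human colorectal cancer cell line, and DKO1 is its derivative with knockout of DNMT1 and DNMT3B. DNMT1 is the enzyme that copies DNA methylation onto new strands, and DNMT3B can methylate unmethylated sites. Cells of both lines were stained for DNA content and sorted, and S-phase cells of the early, mid and late gates were pooled in equal numbers before loading. The table held 207 cells from 1 S-phase library of DKO1 and 322 cells from 1 S-phase library of HCT116. How many clones either line stems from is not given in the labels, and the G1 library of each line was not analysed here.

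DNA replication follows a time programme. Neighbouring origins fire at similar times, so that chromosomes fall into large domains that replicate early or late, joined by transition zones. Early domains are usually gene rich, open and transcribed, whereas late domains are usually gene poor and often lie at the nuclear lamina. In cancer cells, long stretches of reduced DNA methylation lie largely in late domains. Copy number in a single S-phase cell shows which stretches it has already copied, since a replicated stretch is present in more copies than an unreplicated one.

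Progress measures how far a cell had come through S phase, as the percent replicated among all its bins with a call. Median progress was 48.8% in DKO1 (quartiles 39.97 and 59.6%, range 9.49 to 78.5%) and 52.7% in HCT116 (quartiles 39.5 and 63.1%, range 17.3 to 77.6%). Cells were sorted into 6 strata of 10 points from 20 to 80% progress, which held 11, 41, 53, 51, 40 and 10 DKO1 cells and 33, 48, 60, 78, 82 and 19 HCT116 cells. For each bin the percent of cells that had replicated it was averaged over the strata with equal weight, which is its standardised share, so a high share marks an early bin. Each line is 1 library, cells are not replicates, and no test between the lines was possible. Intervals are exact binomial ones (Clopper-Pearson, 95%) and hold the counting error of cells only, the depth of reads behind a call is unknown, and the barcodes of the lines did not overlap (0 shared). Counts of cells that had replicated a domain or region take all cells of a line with calls there. Unlike the shares, they were not matched in progress, which was further on in HCT116 by the median. Bins without a call were more frequent in DKO1: code 0 took 3.91% of the calls in used bins of chromosome 3 in DKO1 and 0.465% in HCT116, against 2.28 and 0.821% on the other autosomes. A run of at least 50 uncalled used bins was found on chromosome 3 in 44 of 207 DKO1 cells (21.3%, interval 15.9 to 27.5%) and in 6 of 322 HCT116 cells (1.86%, interval 0.687 to 4.01%).

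The table covers chromosome 3 from 560001 to 196960000 in hg19 coordinates. In the table as used here 7 stretches of 1 Mb or more held no bin and were not analysed, from 4.48 to 15.04, 60 to 61.52, 69.44 to 78.56, 90.48 to 94, 116.48 to 118, 188.48 to 189.52 and 194.96 to 196 Mb. The stretch from 90.48 to 94 Mb holds the centromere, and the arms were split within it. Bins were given no gene names, since no annotation in hg19 coordinates was used.

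Chromosome 3 replicated later than the average autosome in both lines, and its 2 arms differed in which line was ahead. Its bins had a mean share of 45.4% in DKO1 and 44.7% in HCT116, against 50.1 and 50.2% on the other autosomes. When all autosomal bins were divided into 3 equal timing classes by the mean of both lines, 29.9% of the chromosome's bins were early, 30.6% middle and 39.5% late. Late bins made up 45.9% of the p arm and 35.05% of the q arm. The mean share of DKO1 was 45.4% on p and 45.4% on q, and that of HCT116 was 39.6% on p and 48.3% on q. The equal means of DKO1 held with all cells included. When the cells with an outlying arm, described further on, were left out, p was at 42.4% in DKO1 and 39.6% in HCT116, and q at 46.95% in DKO1 and 48.9% in HCT116. In cells with little code 0 (up to 1% of bins) at 30 to 70% progress p was at 40.9% in DKO1 and 39.3% in HCT116, and q at 48.0% in DKO1 and 49.3% in HCT116, so that p was the lower arm of both lines in either set. Over all cells DKO1 was 5.85 points above HCT116 on the p arm, with 73.0% of bins higher, and 2.83 points below it on the q arm, with 35.1% of bins higher.

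**Figure D1:**
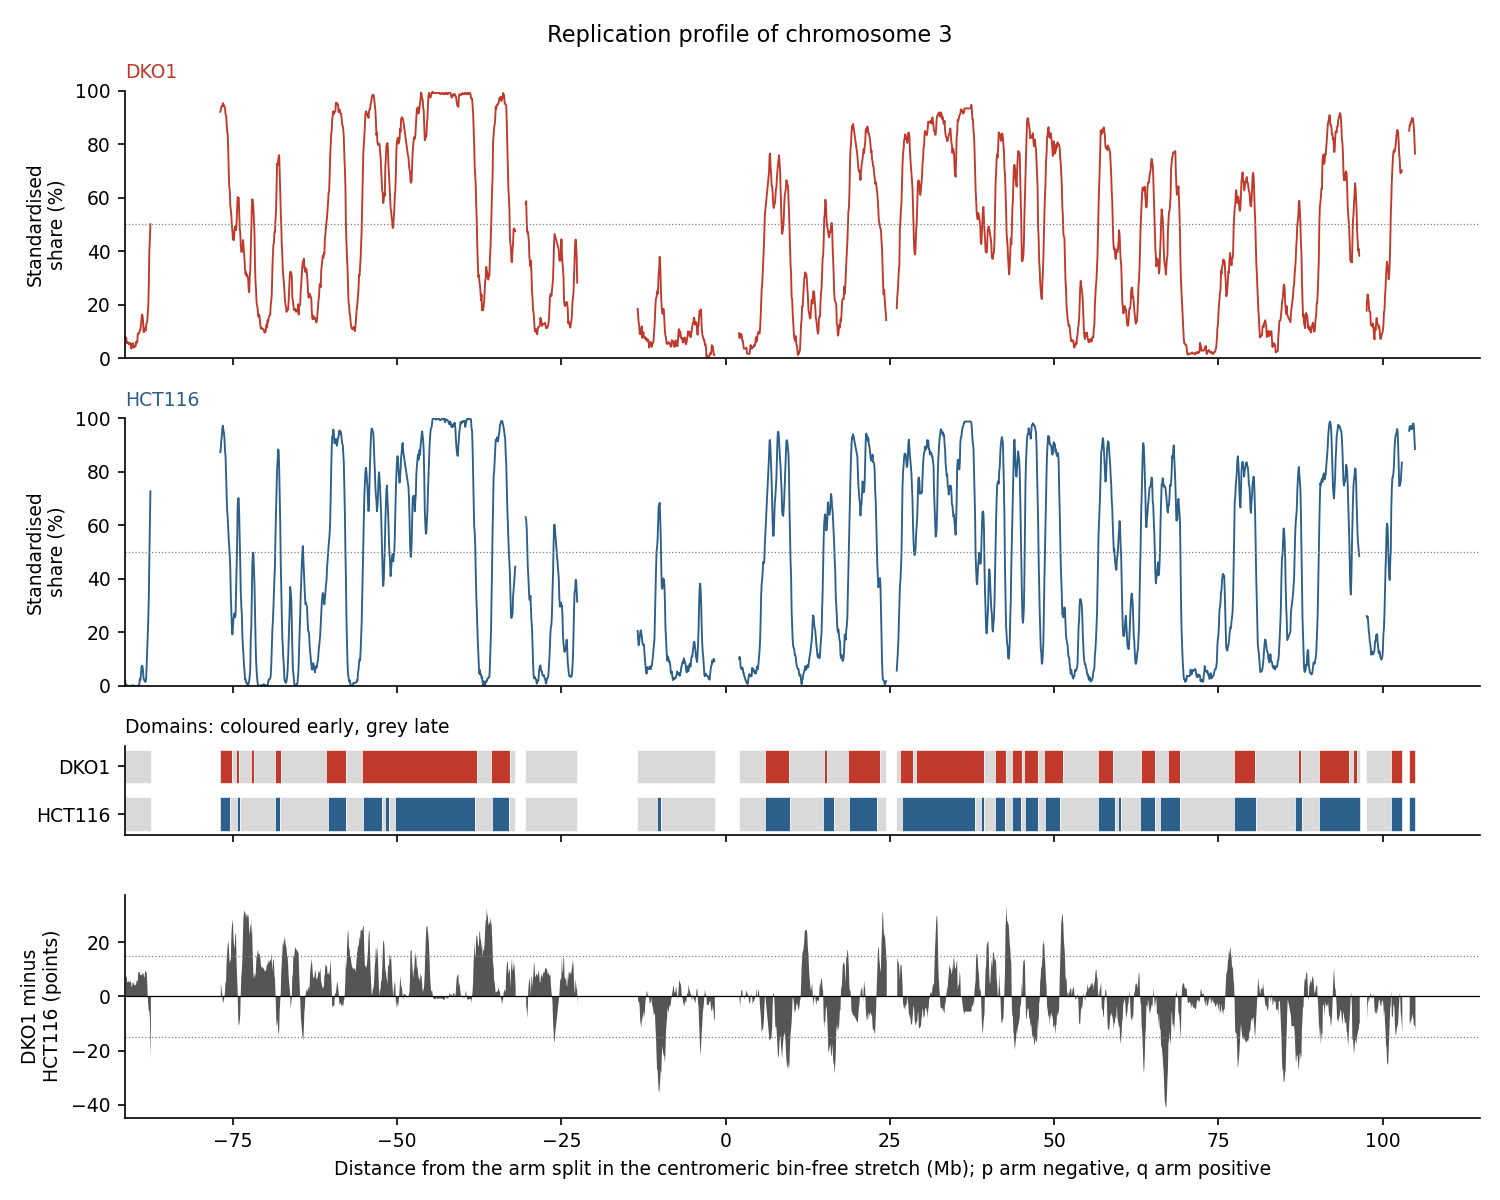
Standardised share (%) of each used bin of chromosome 3 in DKO1 (top) and HCT116 (second), the early and late domains of each line, and the difference in points (bottom), against the distance from the arm split in Mb. Most bars of the difference stand above 0 on the p arm, where 73.0% of bins were higher in DKO1, and below 0 on the q arm, where 35.1% were; dotted lines mark 50% and 15 points.

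The order along the chromosome was largely shared. Domains were defined in each line as runs of at least 5 bins on the same side of a share of 50%, with shorter runs merged into their neighbours and with breaks at bin-free stretches of 1 Mb or more. DKO1 had 54 domains, 25 early and 29 late, and HCT116 had 57, 27 early and 30 late. Their median width was 2.08 Mb in DKO1 and 2.24 Mb in HCT116. In total 65.68 Mb were early in both lines and 85.68 Mb late in both, while 74 bins (3.61%) were early in DKO1 only and 82 bins (4.00%) early in HCT116 only. The same shares over all autosomes are not given, so these counts do not set the chromosome apart from others. The earliest bins lay in the same early block of the p arm in both lines: the highest share was 99.5% in DKO1, at chr3:47360001-47440000, and 99.8% in HCT116, at 18 bins between 47360001 and 53120000 whose share in DKO1 ran from 98.6 to 99.5%. The latest lay on the p arm as well. In DKO1 they were the 2 bins of chr3:89280001-89440000 near the centromere, at 0.417% in DKO1 and a mean of 3.16% in HCT116. In HCT116 25 bins had a share of 0, of which 21 lay in the first 4.48 Mb and the rest up to 21120000. At least 316 HCT116 cells were called at each of them, which allows up to 0.949% of called cells to be replicated, taken as 3 cells of those called. This is no limit on the standardised share, in which the strata have equal weight whatever their number of cells. The share of these bins in DKO1 was 7.98% on average (range 3.59 to 30.4%). No bin of the chromosome had a share of 0 in DKO1.

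On the p arm the broadest early block held 11.76 Mb of bins at chr3:41600001-53920000 in HCT116, with a mean share of 92.0% in DKO1 and 87.6% in HCT116. It was replicated, counting a cell when over 50% of its called bins there were, in 189 of 192 DKO1 cells (98.4%, interval 95.5 to 99.7%) and in 320 of 322 HCT116 cells (99.4%, interval 97.8 to 99.9%). In cells at 20 to 30% progress 80.7% of its bins were already replicated in DKO1 and 65.4% in HCT116, and from 50% progress on the lines lay within 2 points of each other. The next widest early domains of the arm were chr3:36800001-39680000, at 87.5% in DKO1 and 76.5% in HCT116, and chr3:31520001-34160000, at 85.6 and 83.9%. In DKO1 the early block reached from 36640001 to 54160000 without a break and held 16.96 Mb of bins, the widest domain of either line on the chromosome.

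In HCT116 that block was interrupted by 2 short late domains that DKO1 had on the early side. At chr3:39680001-40080000 the share was 60.6% in DKO1 and 42.2% in HCT116, and the domain was replicated in 117 of 200 DKO1 cells (58.5%) and 134 of 322 HCT116 cells (41.6%). At chr3:40800001-41600000 the share was 54.5% in DKO1 and 46.9% in HCT116, but 91 of 200 DKO1 cells (45.5%, interval 38.5 to 52.7%) and 143 of 321 HCT116 cells (44.5%, interval 39.0 to 50.2%) had replicated it. Those intervals overlap and the counts were not matched in progress, so they could not tell the lines apart at the second interruption. Its share in DKO1 was 49.7%, on the late side as in HCT116, without the cells with an outlying arm described below. The first kept most of its difference, 15.2 points, without those cells.

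The widest late domains of the p arm flanked these blocks and the centromere. The domain at chr3:82160001-90320000, next to the centromere, was among the last to replicate, with a share of 8.15% in DKO1 and 11.7% in HCT116, and even at 70 to 80% progress only 20.8% of its bins were replicated in DKO1 and 36.0% in HCT116. The other 2 lay at chr3:61520001-69440000, at 24.5% in DKO1 and 18.9% in HCT116, and at chr3:24240001-31520000, at 27.5 and 19.8%. Both were on average ahead in DKO1, and the difference shrank without the cells with an outlying arm, to 0.834 and 1.62 points.

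On the q arm the widest early domain was chr3:118800001-130000000 in HCT116, with 10.56 Mb of bins and a mean share of 80.5% in DKO1 and 80.3% in HCT116. The others were chr3:182240001-188480000, at 68.7% in DKO1 and 76.7% in HCT116, and chr3:110720001-115040000, at 75.6 and 79.5%. The widest late domains were chr3:161200001-169360000, at 12.8% in DKO1 and 12.2% in HCT116, chr3:142960001-148720000, at 18.9 and 14.6%, and chr3:172720001-178640000, at 13.9 and 19.9%. The first of these late domains was replicated in 3 of 193 DKO1 cells (1.55%, interval 0.322 to 4.48%) and 5 of 320 HCT116 cells (1.56%, interval 0.509 to 3.61%). It was late in both libraries, without a detectable difference in these counts, which were not matched in progress. The 6 wide domains of the q arm differed between the lines by -8.01 to 4.32 points.

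Over all 27 early HCT116 domains, DKO1 had the lower mean share in 19, with a median difference of -7.81 points. The arms differed in this. DKO1 was lower in 16 of 18 early domains on q (median -9.54 points) and in 3 of 9 on p (median 4.05 points). Of the 30 late HCT116 domains DKO1 had the higher share in 22, namely 10 of 12 on p (median 8.56 points) and 12 of 18 on q (median 3.64 points). Early HCT116 domains under 4 Mb had a median difference of -8.15 points (24 domains), and the 3 of at least 4 Mb ran from -8.01 to 4.35 points. Without the cells with an outlying arm, described below, the median difference of the late domains was 3.89 points on p and 3.35 points on q. That of the early domains was then 3.45 points on p and -7.37 points on q. These domains were drawn on HCT116, so values in HCT116 lie by construction on their own side of 50%. That choice by itself favours lower DKO1 values in early and higher ones in late domains, so these counts describe the domains and support nothing further.

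Early territory was divided differently between the arms. On p it covered 26.32 Mb in DKO1 and 23.76 Mb in HCT116, and on q 45.28 Mb in DKO1 and 48.48 Mb in HCT116. Bins early in DKO1 and late in HCT116 made up 3.28 Mb of p and 2.64 Mb of q. The opposite, late in DKO1 and early in HCT116, made up 0.72 Mb of p and 5.84 Mb of q. Without the cells with an outlying arm these 4 values were 1.92, 3.20, 0.80 and 5.68 Mb. The excess of early DKO1 territory on p and that of early HCT116 territory on q were both smaller without those cells.

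Besides the 2 interruptions of the p-arm block, 7 domains of one line had under 20% of their bins on the same side in the other. The largest gap between the lines was at chr3:81520001-82160000, an early island in HCT116 within the late territory beside the centromere. Its share was 30.2% in DKO1 and 61.0% in HCT116, and 54 of 205 DKO1 cells (26.3%, interval 20.5 to 32.9%) and 213 of 322 HCT116 cells (66.1%, interval 60.7 to 71.3%) had replicated it. In cells at 60 to 70% progress 56.6% of its bins were replicated in DKO1 and 95.7% in HCT116. Its difference of -30.8 points was -35.8 points without the cells with an outlying arm, so the island stood out more clearly there. The second early island of HCT116 was at chr3:151680001-152160000, at 42.7% in DKO1 and 56.1% in HCT116. A late gap of HCT116 at chr3:130000001-130880000 lay on the early side in DKO1, at 53.2% in DKO1 and 44.9% in HCT116. It was replicated in 112 of 201 DKO1 cells (55.7%, interval 48.6 to 62.7%) and 146 of 320 HCT116 cells (45.6%, interval 40.1 to 51.3%), and these intervals overlap. DKO1 was higher there in the strata below 70% progress and lower at 70 to 80%.

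DKO1 had 1 early island of its own, at chr3:19760001-20240000 on p, with a share of 55.4% in DKO1 and 40.9% in HCT116 and replicated in 119 of 200 DKO1 cells (59.5%) and 135 of 322 HCT116 cells (41.9%). Without the cells with an outlying arm the island was at 50.9% in DKO1, close to the limit of 50%, and at 41.0% in HCT116. The 3 late domains of DKO1 alone lay on q. They were chr3:120560001-121040000, at 43.3% in DKO1 and 51.8% in HCT116, chr3:186880001-187440000, at 39.9 and 46.0%, and chr3:188080001-188480000, at 41.9 and 53.7%. The mean share of the second was below 50% in both lines, and it counted as early in HCT116 because a run of fewer than 5 bins below 50% was merged into the early domain around it. This second domain was replicated in 63 of 191 DKO1 cells (33.0%, interval 26.4 to 40.1%) and 141 of 319 HCT116 cells (44.2%, interval 38.7 to 49.8%), and these intervals overlap. The third differed most between the lines, by -11.7 points.

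Domain borders lay at similar places, but the share averaged over all cells changed less steeply across them in DKO1. There were 46 borders in DKO1 and 49 in HCT116, and 28 were shared within 2 bins (160 kb), 60.9% of the DKO1 borders and 57.1% of the HCT116 borders. Within 5 bins (400 kb) 37 were shared, 80.4% and 75.5%. Of the 28, 6 lay at the same bin in both lines, 16 differed by 1 bin and 6 by 2 bins. The step across a border, the difference of the mean shares of the 5 bins on either side, had a median of 28.0 points in DKO1 and 42.3 points in HCT116. It was smaller in DKO1 at 26 of the 28 shared borders, at 8 of 8 on p and 18 of 20 on q. The exceptions were the borders at 157280000 in DKO1 and 157360000 in HCT116 (26.4 and 19.99 points), and at 193200000 in both (30.4 and 24.5 points).

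**Figure D2:**
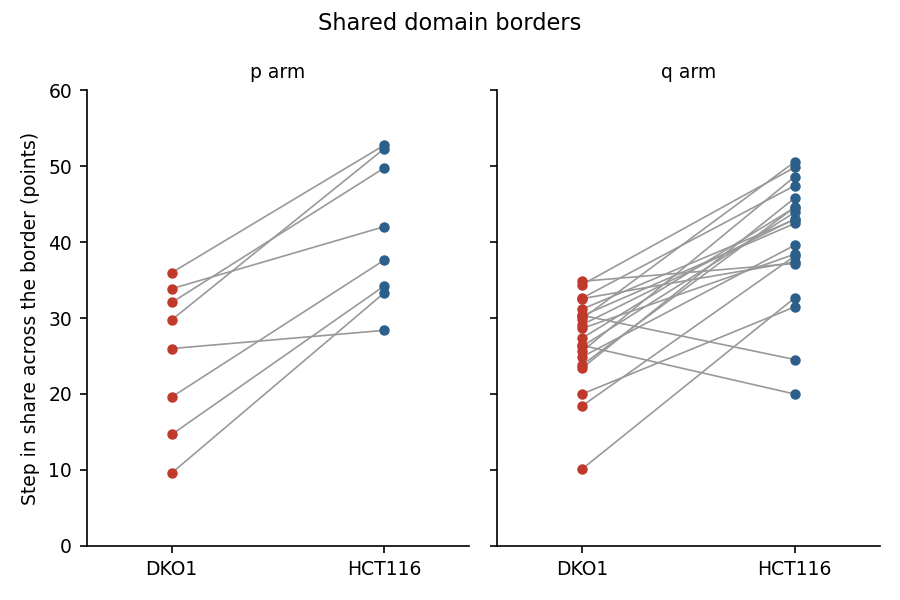
Step in standardised share (points) across each border shared within 2 bins, in DKO1 (left) and HCT116 (right), with lines joining the same border, for 8 borders on the p arm and 20 on the q arm. Lines go up to the right for 26 of 28 borders, with medians of 28.0 points in DKO1 and 42.3 points in HCT116.

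Small displacements of the borders shared within 2 bins went different ways on the arms. On p the early side was wider in DKO1 at 6 of 8 borders and narrower at 1, and on q it was wider at 5 of 20 and narrower at 10. Among the borders shared within 5 bins it was wider at 9 of 11 and narrower at 1 on p. On q it was then wider at 9 of 26 and narrower at 12, so the direction on q was less clear. The 6 largest displacements among the borders shared within 2 bins tied at 2 bins. On p they enlarged the early side in DKO1 at 36640000 (36800000 in HCT116), at 56320000 (56480000) and at 59120000 (58960000). On q the early side was enlarged in DKO1 at 140480000 (140640000 in HCT116) and reduced at 101680000 (101840000) and 179520000 (179680000). A displacement of 2 bins is 160 kb, close to the resolution of the table.

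The difference between the arms was present through S phase. The p arm was higher in DKO1 in all 6 strata, both by the mean over cells and by the median cell. Its mean replicated percent was 27.9, 34.7, 39.7, 46.0, 55.5 and 66.7% in DKO1 from the lowest to the highest stratum, against 19.9, 26.2, 34.6, 43.1, 52.3 and 61.5% in HCT116. Medians over cells differed less, by 4.76, 5.51, 2.32, 0.832, 1.16 and 2.259 points. On the q arm the mean was 17.7, 31.8, 43.4, 50.4, 62.1 and 64.8% in DKO1, against 21.4, 31.1, 44.7, 55.6, 64.3 and 72.1% in HCT116. DKO1 was lower there in 5 of 6 strata, the exception being 30 to 40% progress.

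Part of the p-arm difference came with a group of cells. A cell's arm was called outlying when its replicated percent departed by over 15 points from the line's relation to progress on the other chromosomes. The p arm lay above that relation in 19 of 207 DKO1 cells (9.18%, interval 5.62 to 14.0%) and in 0 of 322 HCT116 cells, which allows a share of up to 0.932% (again 3 cells of the total). It lay below in 1 cell of each line. In the 19 cells the p arm was replicated to a median of 67.1% (range 44.4 to 92.0%), while the other chromosomes stood at a median of 40.2% (range 27.3 to 71.2%) and the q arm at 35.4%. The late bins of their p arm were replicated to a median of 50.3%, against 4.92% in the 179 DKO1 cells with neither arm outlying. In the late bins of the q arm the median of the 19 cells was 2.84%. These cells were picked for their high p arm, so its values describe them.

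**Figure D3:**
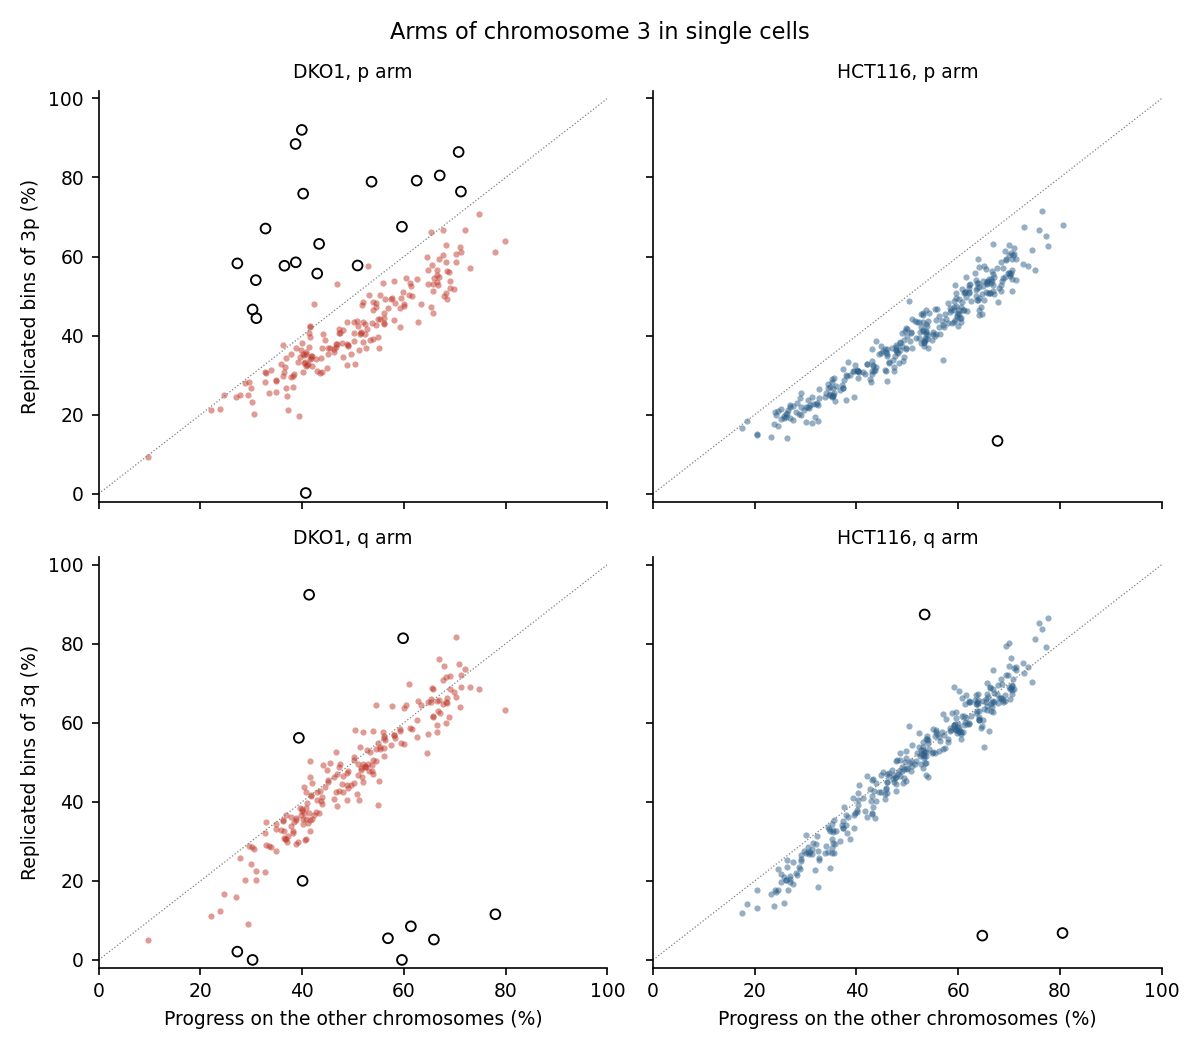
Percent of the bins of 3p (top) and 3q (bottom) that were replicated in each cell against the cell's progress on the other chromosomes (%), in DKO1 (left, 207 cells) and HCT116 (right, 322 cells). Black circles are cells with that arm over 15 points from the line's relation; 19 lie above it on 3p in DKO1 and none in HCT116, and the dotted line marks equal values.

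The q arm was outlying in 11 DKO1 cells, 8 of them below the relation, and in 3 HCT116 cells, 2 of them below. In the 8 DKO1 cells it was replicated to a median of 5.31% at a median progress elsewhere of 58.2%. For chromosome 3 as a whole 9 DKO1 cells and 3 HCT116 cells were outlying. Code 0 took a median of 4.64% of all bins in the 19 cells with a high p arm and 1.75% in the 179 cells. On chromosome 3 itself its median was 10.7% of the bins in the 19 cells and 33.8% in the 8 cells with a low q arm, against 0.0972% in the 179 cells. Bins without a call were thus more frequent on the chromosome with the outlying arm, and their part in the result was not tested. At least 1 other chromosome was outlying in 15 of the 19 and in 76 of the 179. Without the cells with an outlying arm, 179 DKO1 and 318 HCT116 cells remained, and the difference was 2.78 points on p and -1.92 points on q. In the cells with little code 0 (up to 1% of bins), 60 DKO1 and 187 HCT116 cells at 30 to 70% progress, it was 1.58 points on p and -1.31 points on q, while all cells of the same strata gave 5.43 and -1.65 points. The sign on both arms was the same in each of these sets, and the size on p depended on the cells included. Whether the copy number of the arm differed in these cells outside S phase was not tested.

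Within the p arm the stretches went separate ways. DKO1 was higher by 8.99 points from 15040001 to 60000000 (6.01 points without the cells with an outlying arm) and by 5.61 points from 61520001 to 69440000 (0.834 points). The stretch next to the centromere, from 78560001 to 90320000, was lower in DKO1, at -5.47 points (-7.86 points without those cells). The end of the arm from 560001 to 4480000 was higher by 4.53 points (1.62 points). On q all 4 stretches were lower in DKO1, at -2.27 points from 94000001 to 116480000, -2.66 points from 118000001 to 188480000, -6.18 points from 189520001 to 194960000 and -9.22 points from 196000001 to 196960000. The sign was the same on all 8 stretches without the cells with an outlying arm, and the last stretch was then at -6.28 points. In the cells with little code 0 it turned on the stretch from 61520001 to 69440000, at -1.45 points, where all cells of the same strata gave 5.93 points. The size changed on others: it was 0.558 points on the first stretch of p (2.48 points in all cells of the strata), 4.36 points from 15040001 to 60000000 (8.02 points), -6.70 points next to the centromere (-3.71 points) and -1.73 points on the last stretch of q (-4.13 points).

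The classes differed between the arms as well. Early bins had a share of 92.3% in DKO1 and 88.4% in HCT116 on p, and 79.7 and 85.7% on q. Late bins had 14.6% in DKO1 and 7.27% in HCT116 on p, and 12.5 and 10.8% on q. On the other autosomes early bins stood at 86.8% in DKO1 and 90.1% in HCT116 and late bins at 14.5 and 9.35%. The early bins of p therefore differed in the opposite direction from those of q and of the other autosomes, while late bins were higher in DKO1 in all 3. Without the cells with an outlying arm the late bins of p differed by 3.08 points and its early bins by 3.38 points.

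Of the 2048 bins, 216 (10.5%) were at least 15 points higher in DKO1, against 6.90% of all autosomal bins. On p the share was 17.2% and on q 5.88%. Without the cells with an outlying arm it was 10.9% on p, against 7.09% of all autosomal bins. At least 15 points lower in DKO1 were 163 bins (7.96%), against 7.39% of all autosomal bins, with 3.21% on p and 11.3% on q. The lower count was close to the background over the whole chromosome, and both counts were unequal between the arms. Runs of at least 5 such bins formed 20 regions higher in DKO1 (15.04 Mb), 13 on p and 7 on q, and 13 regions lower (10.24 Mb), 1 on p and 12 on q. All autosomes together held 146 higher and 153 lower regions. The regions were chosen by this difference, so their values describe it and support nothing further.

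**Figure D4:**
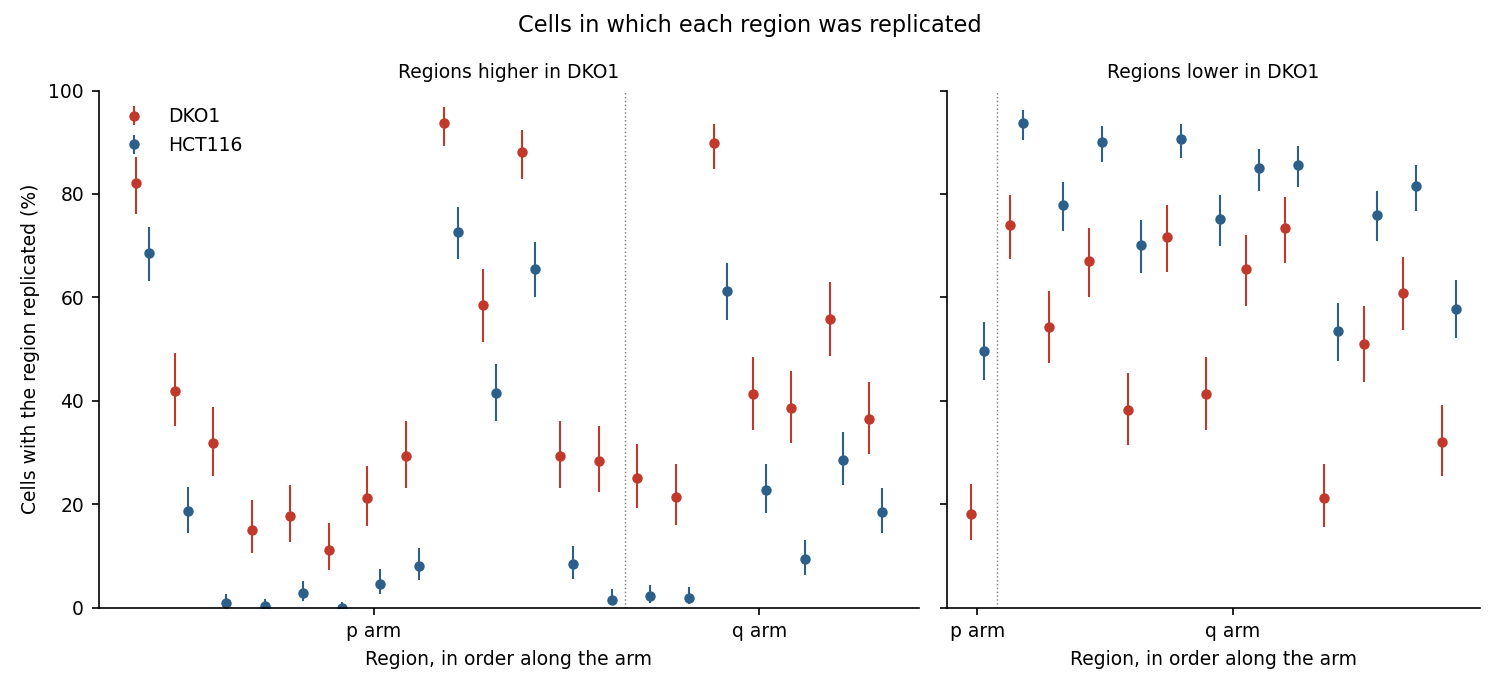
Percent of cells in which each of the 33 regions was replicated, in DKO1 (red, left of each pair) and HCT116 (blue), with exact 95% intervals that cover counting error only, for the 20 regions higher and the 13 lower in DKO1, in order along the arms. The intervals of the lines do not overlap in any of the 33 regions, which were chosen by their difference. All cells of a line with calls there are counted, not matched in progress.

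The region with the largest summed difference, chr3:18400001-19920000 on p, was late in HCT116, with a share of 36.0% in DKO1 and 8.23% in HCT116. It was replicated in 65 of 204 DKO1 cells (31.9%, interval 25.5 to 38.7%) and in 3 of 320 HCT116 cells (0.938%, interval 0.194 to 2.71%). From the lowest to the highest stratum 3.35, 23.8, 30.9, 41.2, 56.2 and 60.2% of its bins were replicated in DKO1, against 0.478, 0.768, 2.89, 5.80, 15.4 and 24.1% in HCT116. In HCT116 it remained largely unreplicated until late S phase, whereas in DKO1 part of its bins were coded replicated from 30% progress on. The second, chr3:54960001-56480000, had 32.8% in DKO1 and 7.57% in HCT116 and was replicated in 58 of 204 DKO1 cells (28.4%) and 5 of 321 HCT116 cells (1.56%). It lies in the late domain between 2 early blocks of the p arm, and the neighbouring region chr3:53840001-54880000 at the border of that domain had 38.8% in DKO1 and 18.05% in HCT116.

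Other p-arm regions of this kind were chr3:35760001-36960000, at 40.9% in DKO1 and 19.1% in HCT116, chr3:16640001-17440000, at 48.5 and 25.4%, and chr3:24400001-25200000, at 27.5 and 8.39%. All were late in HCT116 and below 50% in DKO1. The differences of the p-arm regions named so far were smaller in the cells with little code 0 than in all cells of the same strata. The first region differed by 22.4 points there (31.8 points in all cells of the strata), chr3:54960001-56480000 by 11.9 points (26.2 points) and chr3:53840001-54880000 by 12.2 points (23.2 points). The region chr3:24400001-25200000 differed by 9.65 points (16.6 points), chr3:35760001-36960000 by 14.1 points (21.1 points) and chr3:16640001-17440000 by 22.3 points (29.5 points). On q the largest was chr3:134480001-135280000, with 45.6% in DKO1 and 19.6% in HCT116, replicated in 77 of 199 DKO1 cells (38.7%) and 30 of 319 HCT116 cells (9.40%). In cells at 20 to 30% progress 27.5% of its bins were replicated in DKO1 and 0.303% in HCT116. It contains the bin with the highest difference of the chromosome, chr3:134640001-134720000, at 33.9 points.

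The remaining q-arm regions named were chr3:103600001-104560000, at 26.6% in DKO1 and 5.55% in HCT116, chr3:115600001-116400000, at 30.3 and 7.07%, and chr3:142880001-143600000, at 58.8 and 34.6%. The last of them lay on different sides of 50% in the lines, at the edge of an early domain that reached 5 bins further in DKO1. Of all 20 higher regions 16 were late in HCT116 and 2 lay above 50% in DKO1 only. The difference had the same direction in all 6 strata in 14 of them.

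Regions lower in DKO1 were mostly early or near 50% in HCT116. The only one on p, chr3:81360001-82800000, spans the early island beside the centromere and had 23.3% in DKO1 and 49.1% in HCT116, with 37 of 205 DKO1 cells (18.05%, interval 13.04 to 24.0%) and 160 of 322 HCT116 cells (49.7%, interval 44.1 to 55.3%) replicated. From the lowest to the highest stratum 3.03, 9.10, 16.6, 19.1, 43.6 and 48.3% of its bins were replicated in DKO1, against 5.39, 18.2, 32.9, 57.7, 85.1 and 95.3% in HCT116. In the highest stratum it was nearly complete in HCT116 and about as often unreplicated as replicated in DKO1.

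The largest lower region on q was chr3:158160001-159440000, with 43.7% in DKO1 and 71.2% in HCT116, replicated in 81 of 196 DKO1 cells (41.3%, interval 34.4 to 48.6%) and 241 of 321 HCT116 cells (75.1%, interval 69.97 to 79.7%). It contains the bin with the lowest difference of the chromosome, chr3:158960001-159040000, at -41.1 points. From the lowest stratum on 15, 12.2, 33.5, 48.4, 72.3 and 81.0% of its bins were replicated in DKO1, against 30.1, 49.2, 72.3, 85.8, 95.8 and 94.0% in HCT116. The levels of DKO1 at 50 to 60% and 60 to 70% progress were close to those of HCT116 at 30 to 40% and 40 to 50%.

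**Figure D5:**
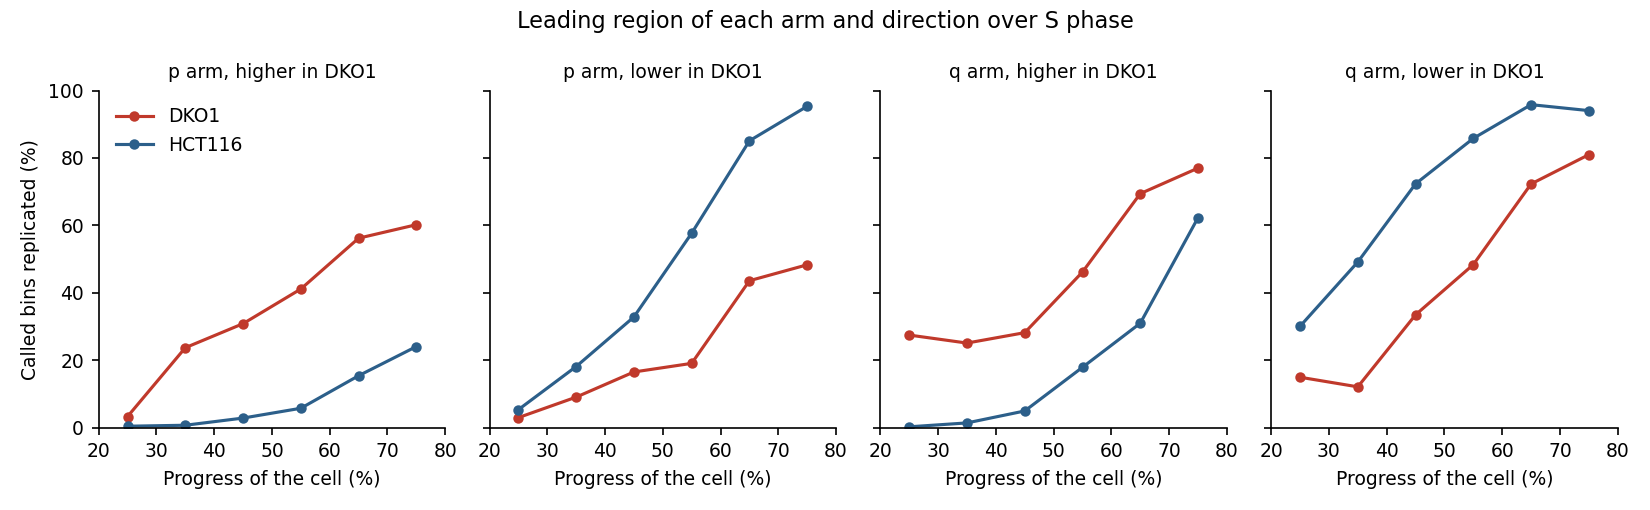
Percent of called bins that were replicated in the region with the largest summed difference of each arm and direction, against progress of the cell (%, centre of each stratum), in DKO1 (red) and HCT116 (blue). The panels show chr3:18400001-19920000, chr3:81360001-82800000, chr3:134480001-135280000 and chr3:158160001-159440000 from left to right, and DKO1 stays on one side of HCT116 in all 6 strata of each.

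A further 2 regions of q were on different sides of 50% in the lines, chr3:107520001-108720000, at 40.5% in DKO1 and 62.1% in HCT116, and chr3:178560001-179600000, at 46.6 and 69.1%. Another, chr3:192400001-192960000, had 31.9% in DKO1 and 52.8% in HCT116. The region chr3:176560001-177280000, at 22.7% in DKO1 and 49.9% in HCT116, lay within late territory. The rest remained early in both lines. They were chr3:101040001-101760000, at 61.0% in DKO1 and 84.5% in HCT116, chr3:170720001-171600000, at 65.4 and 81.4%, chr3:187280001-188000000, at 54.9 and 72.2%, and chr3:169760001-170240000, at 58.6 and 80.7%.

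All 13 lower regions had the same direction in all 6 strata. Without the cells with an outlying arm all 33 regions had the same sign, from 8.73 to 29.3 points in the higher and from -29.6 to -15.3 points in the lower regions. The rule then gave 14 higher regions, 6 on p and 8 on q, and 13 lower, 4 on p and 9 on q. Bins at least 15 points higher in DKO1 then made up 10.9% of p and 7.13% of q, against 7.09% of all autosomal bins in the same cells. Bins at least 15 points lower made up 4.76% of p and 9.44% of q, against 7.05%. In the cells with little code 0 all 33 had the same sign as well, but only 5 of the 13 higher regions of p were still past 15 points there, against 7 of 7 on q, and 11 of the 13 lower regions. The smallest difference was 1.80 points, at chr3:26080001-26960000 on p, where all cells of the same strata gave 9.02 points. There the 13 higher regions of p had a median difference of 13.7 points (18.9 points in all cells of the same strata), and the 7 of q had 26.8 points (24.4 points). By the median, the differences were thus smaller in those cells in the higher regions of p and not in those of q, while some regions of each arm went the other way.

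Cells of the same progress resembled each other less in DKO1. Pair discordance counts the bins in which 2 cells of one line differ, as a mean percent over pairs at 40 to 60% progress that lie no more than 5 points apart. On chromosome 3 it was 23.1% in DKO1 (2329 pairs of 104 cells) and 15.7% in HCT116 (4124 pairs of 138 cells). It was 21.1% in DKO1 and 13.9% in HCT116 on p, and on q DKO1 exceeded by 8.99 points the 17.0% of HCT116. Without the cells with an outlying arm it was 17.2% in DKO1 and 13.9% in HCT116 on p, and 23.8 and 16.4% on q. The gap on p was then 3.35 points (7.18 points in all cells) and that on q 7.41 points (8.99 points). By class it was 13.8% in DKO1 and 6.78% in HCT116 in early bins, 41.7 and 34.6% in middle bins, and 15.02 and 7.51% in late bins.

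Replication width, the span of progress in which a typical bin passes from 25 to 75% replicated by a logistic fit, was 31.8 points in DKO1 and 25.8 points in HCT116. Without the cells with an outlying arm it was 27.6 points in DKO1 and 24.7 points in HCT116. In the cells with little code 0 it was 26.1 points in DKO1 and 24.8 points in HCT116, and discordance was 18.7 and 14.8%. Fewer changes between replicated and unreplicated bins were counted along the chromosome in DKO1, with a median of 79 per cell (quartiles 68.75 and 88.25) against 88.5 in HCT116 (quartiles 80 and 101) at 40 to 60% progress. Their number differed by less than the spread between cells of a line.

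Among the 21 chromosomes with at least 100 used bins, chromosome 3 stood high in how much bins differed between the lines. The SD of the bin differences was 11.5 points and 18.5% of its bins were past 15 points in either direction, each ranked 2 of the 21. Its ratio of discordance, 1.47, ranked 4 and its gap in width, 6.03 points on the scale of the shares, ranked 5. The autosomes were also cut into 58 windows of 400 consecutive used bins, of which the first of chromosome 3, on p, had a mean difference of 8.96 points, the highest of all, and the last, on q, had -5.97 points, ranked 2 from the lowest. Without each window's own outlying cells they were at 4.94 points (ranked 4) and -5.80 points. With 1 library per line these ranks are descriptions, and no test that the chromosome differs from the others was made.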

How the data were processed

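Per the labels and file headers, the authors deposited whole-number state codes from a hidden Markov model, with a row for each bin of 80 kb and a column for each cell. Cell Ranger, SAMtools 1.10 and bedtools 2.26.0 are listed in the submitters' processing notes, with hg19 and GRCh37 as builds. How the model was fitted, which filters were used and how many reads each cell had was not given in the sources used here. The table does not define the codes: 2 was read as replicated, 1 as unreplicated and 0 as not called, since, over 21 chromosomes, those denser in protein-coding genes (counted in a GRCh38.p14 table) had more code 2 (Spearman's rho 0.871 in DKO1 and 0.851 in HCT116, a description).

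All values were computed with Python 3.11.15, numpy 2.4.6, pandas 2.3.3 and scipy 1.17.1, from bins with a call in 90% or more of the cells of each line. The groups come from the sample titles, and each is 1 library. The chromosome, its lists and its settings were chosen with earlier results of these data known. The named domains, regions and borders follow a rule of size: the 3 widest early and late HCT116 domains per arm, up to 10 regions per direction by summed difference, the domains of one line with under 20% of bins on the same side in the other, and the 5 shared borders with the largest displacement, of which 6 tied. The rule planned for splitting the arms, the longest bin-free stretch, would have cut the p arm at 4.48 to 15.04 Mb, so the arms were split at 92 Mb, and breaking domains at bin-free stretches was added after the layout of the table was seen. Outlying arms were measured from a quadratic relation fitted by least absolute deviations. The functions were tested on simulated data. Doublets were not called. Alternatives covered the bin minimum, code 0, progress, strata, classes, run lengths, limits and sets of cells.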

Additional observations from a re-analysis of the deposited data

Results flagged for a closer look

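The share of bins without a call was the one result flagged by a signal in data outside the main measurement. Code 0 was left out of the shares as reported, but it set which bins were used and entered some of the alternatives. It took 3.91% of the calls in used bins of chromosome 3 in DKO1 and 0.465% in HCT116. By arm it was 3.28% in DKO1 and 0.162% in HCT116 on p, and 4.36 and 0.676% on q. It was concentrated in few cells: 145 of 207 DKO1 cells and 295 of 322 HCT116 cells had no such bin among the used bins of the chromosome. Runs of at least 50 such bins lay on p in 22 DKO1 cells and 1 HCT116 cell, and on q in 24 DKO1 cells and 5 HCT116 cells. Its part in the differences between the lines was not tested beyond the values given for cells with little code 0.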

How the results depend on the processing

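No paired analysis was possible because each line is 1 library and no replicate could be left out. Of 149 recomputed values, 125 were labelled the same. Counts had to stay within 1.5 times the count reported, and width and switches within a set fraction of the difference reported. Other differences had to keep their sign and stay within the counting error of cells. That error was wider than the differences in share by arm and class and in discordance. The label is thus no sign that the size of these differences held. The mean difference of chromosome 3, 0.733 points, ran from -1.82 to 1.26 points: its sign turned when a call in 99% of cells was required (-1.82 points) and in cells with little code 0, up to 1% of bins (-0.123 points), and it was 0.00762 points without cells with an outlying arm. The difference on p ran from 1.58 to 6.24 points and that on q from -5.25 to -1.31 points over 9 alternatives and the values reported, with no change of sign. Middle bins turned to 0.0942 points when the 3 classes were cut on the chromosome's own bins. Requiring calls in 99% of cells left 215 bins, and with so few the middle class was at -10.3 points, domains numbered 8 in DKO1 and 9 in HCT116 with 1 shared border, bins past 15 points 20 higher and 38 lower, and regions 2 and 3. Runs of at least 10 bins gave 18 shared borders. A limit of 10 points gave 397 higher and 318 lower bins and 22 lower regions, and one of 20 points gave 116 and 83 bins and 10 and 8 regions. On the scale of the shares, replication width differed by 1.29 points in cells with little code 0 and by 2.89 points without cells with an outlying arm. Switches differed by -6 in cells with little code 0. At a limit of 10 points 14 DKO1 and 5 HCT116 cells had an outlying chromosome 3. The alternative without cells with an outlying arm, the domains ended only at the centromere and the values over 30 to 70% progress were added after the data were seen. Except where fewer bins or cells entered by construction, the cause of a move was not tested. Read depth per cell is unknown, so its limit on single calls could not be given.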
